A study of Homo sapiens with 2 samples.

Results

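The genes described here are 10 factors of blood vessel growth and of the response to low oxygen: the ligands VEGFA, VEGFB and VEGFC, the secreted regulator ANGPTL4, the receptors KDR and FLT1, the co-receptor NRP1, the inhibitor THBS1, and the hypoxia factors HIF1A and EPAS1. They were chosen by name out of 20037 protein-coding genes, and a peak was counted for a gene when it lay inside it or within 50 kb of it. By this rule 96 of 61700 RUNX2 peaks and 80 of 42683 MTA1 peaks belonged to them. The peaks come from MDA-MB-231, an established cell line from a triple-negative breast cancer, grown in DMEM with fetal bovine serum and given no treatment that the labels name. Chromatin was profiled by CUT&Tag, in which an antibody directs a transposase to the DNA beside a bound protein, with 1 library for the transcription factor RUNX2 and 1 for MTA1, a subunit of the NuRD deacetylase complex.

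The labels and the methods name different suppliers for both antibodies and differ on whether the culture had added CO2. The labels also describe end repair and adaptor ligation, steps that CUT&Tag does not usually have. With 1 library for each antibody no value has a replicate, and no test between the antibodies was possible. No control library was analysed here and the number of reads is unknown, so the intervals given below cover the counting of peaks only. Each peak has a score from the peak caller of the authors, on a scale they do not state. It is used only as a rank, given as the percentage of the same list with a lower score. The deleted CDKN2A region of this line had 0 peaks of either list within 50 kb. The mesenchymal genes VIM, CD44, AXL and ZEB1 all had peaks of both lists within 3 kb of a start, and the luminal genes ESR1, PGR and GATA3 had 0 there. Among all protein-coding genes 50% had peaks of both lists there, so these few genes say little about the identity of the cells. Within 50 kb, ESR1 had 10 RUNX2 and 7 MTA1 peaks, and PGR and GATA3 had 1 of each list.

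Vessels grow when VEGF ligands bind receptor tyrosine kinases on endothelial cells. KDR carries most of the growth signal, FLT1 binds VEGFA and VEGFB tightly, and NRP1 is a co-receptor that tumour cells also use. Low oxygen stabilises HIF1A and EPAS1, the alpha subunits of the hypoxia-inducible factors, which then switch on VEGFA, ANGPTL4 and genes of metabolism. RUNX proteins bind DNA around the core TGTGGT, while MTA1 is brought to chromatin by other proteins.

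The promoter windows below run from 250 bases before to 50 after a listed start and are printed from RefSeq (GRCh38.p14), 5′ to 3′ along the gene. A window was found for 8 of the 10 genes, and VEGFA and NRP1 had none. Capitals mark matches, on either strand, to the RUNX core TGTGGT, the AP-1 motif TGANTCA or the hypoxia response core ACGTG or GCGTG. Matches of ACGTG on both strands can share bases, and no match printed here overlapped another. The HIF1A window is shown because peaks of both lists cover all of its 300 bases, and the EPAS1 window because peaks cover only its first part. The ANGPTL4 window lies between strong peaks without being covered, and the KDR window holds the only RUNX core among these windows.
HIF1A, chr14:61695263-61695562, plus strand: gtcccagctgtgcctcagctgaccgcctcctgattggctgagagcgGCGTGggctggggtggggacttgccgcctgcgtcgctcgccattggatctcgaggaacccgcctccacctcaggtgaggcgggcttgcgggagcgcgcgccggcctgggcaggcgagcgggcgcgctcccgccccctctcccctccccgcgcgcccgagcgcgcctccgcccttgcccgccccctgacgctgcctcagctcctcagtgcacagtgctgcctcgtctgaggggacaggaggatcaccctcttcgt
EPAS1, chr2:46297157-46297456, plus strand: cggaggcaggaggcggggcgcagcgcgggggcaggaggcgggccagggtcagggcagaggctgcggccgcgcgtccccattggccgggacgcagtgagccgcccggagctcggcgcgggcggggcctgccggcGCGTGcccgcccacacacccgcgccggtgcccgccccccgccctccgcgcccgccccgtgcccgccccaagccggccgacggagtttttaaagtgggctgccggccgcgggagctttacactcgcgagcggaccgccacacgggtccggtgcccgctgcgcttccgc
ANGPTL4, chr19:8363905-8364204, plus strand: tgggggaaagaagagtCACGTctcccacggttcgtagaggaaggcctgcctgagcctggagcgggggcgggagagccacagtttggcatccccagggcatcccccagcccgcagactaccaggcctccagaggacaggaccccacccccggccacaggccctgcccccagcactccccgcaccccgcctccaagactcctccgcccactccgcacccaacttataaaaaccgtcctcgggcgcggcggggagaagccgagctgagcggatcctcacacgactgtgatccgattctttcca
KDR, chr4:55125546-55125845, minus strand: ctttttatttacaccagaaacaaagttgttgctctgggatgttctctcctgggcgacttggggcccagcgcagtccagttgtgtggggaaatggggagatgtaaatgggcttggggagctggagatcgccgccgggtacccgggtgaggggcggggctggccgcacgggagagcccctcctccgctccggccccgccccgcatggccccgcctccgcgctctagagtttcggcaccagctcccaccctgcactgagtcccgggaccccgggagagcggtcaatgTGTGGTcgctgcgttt
In the HIF1A window a GCGTG lies at base 47, under the peaks of both lists. In the EPAS1 window the GCGTG at base 134 lies beyond the 109 bases under a RUNX2 peak and the 63 under an MTA1 peak. The ANGPTL4 window has the hypoxia core on the reverse strand at base 17, and the KDR window has TGTGGT at base 285. No base of the KDR window lies under a peak of either list. A hypoxia core was found in the main window of 7 of the 8 genes, all but KDR, and also in 54.7% of 22199 windows of protein-coding genes. The RUNX core was present in 11.3% and the AP-1 motif in 6.15% of those windows, and no window of the 8 genes held the AP-1 motif. A second listed start of HIF1A had no match to any of these motifs and no peak over its window. Such matches describe the letters only.

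Of the 10 genes, 9 had a RUNX2 peak inside or within 50 kb and all 10 had an MTA1 peak. Among all protein-coding genes these shares were 90.8% and 86.6%, so having a peak in such a wide window is common. Both lists were present at 9 genes (84.9% of all protein-coding genes), and an overlapping pair of peaks at 9 (80.1%). The genes differed widely in number. NRP1 had 25 RUNX2 and 23 MTA1 peaks, ANGPTL4 had 15 and 10, and VEGFB had 12 and 14. HIF1A followed with 12 and 10, EPAS1 with 12 and 8, VEGFA with 10 and 6, and VEGFC with 6 and 4. KDR and THBS1 each had 2 of either list, and FLT1 had 0 RUNX2 peaks and 1 MTA1 peak. The median protein-coding gene had 5 RUNX2 and 4 MTA1 peaks in its window.

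**Figure D1:**
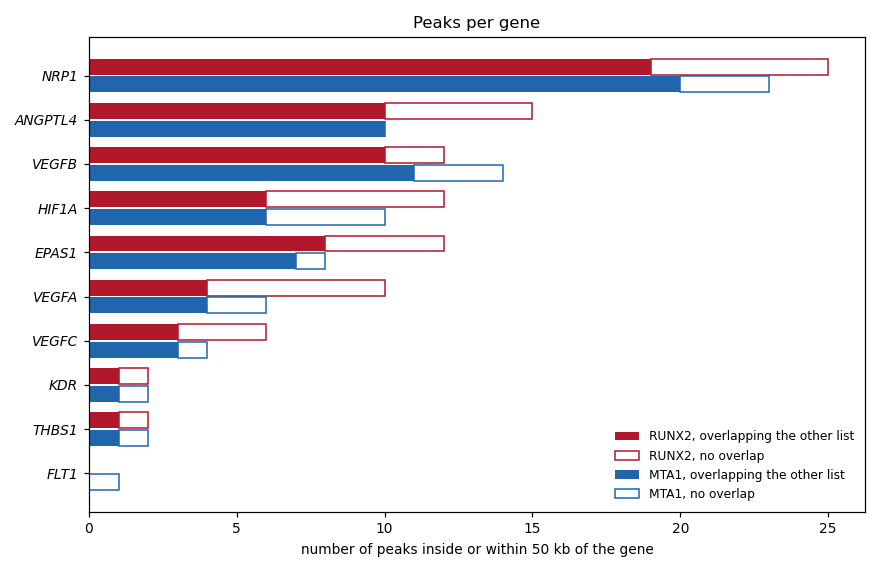
Number of peaks (x axis) inside or within 50 kb of each gene (y axis), with RUNX2 in red and MTA1 in blue; filled parts are peaks that overlap a peak of the other list by at least 1 bp. NRP1 leads with 25 and 23 peaks, while KDR, THBS1 and FLT1 have between 0 and 2 of each list.

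Per length of window the order changed at the top, because the genes run from 4.68 kb (VEGFB) to 195 kb (FLT1) in length. ANGPTL4 had 13.6 RUNX2 peaks per 100 kb, a density above that of 99.4% of protein-coding genes, and VEGFB had 11.5 (97.6%). For MTA1 the highest density was at VEGFB with 13.4 per 100 kb, above 99.7% of genes. NRP1 had 9.72 RUNX2 peaks per 100 kb (94.1%) and 8.94 MTA1 peaks (95.2%). At the other end, KDR had 1.36 per 100 kb of each list and THBS1 1.69 of each, below the medians over all protein-coding genes of 3.55 for RUNX2 and 2.58 for MTA1. FLT1, a long gene of 195 kb, had 0.339 MTA1 peaks per 100 kb, and 14.3% of genes had a lower density.

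Which gene a peak lies closest to differed as much as the numbers did. All 25 RUNX2 and all 23 MTA1 peaks counted for NRP1 had NRP1 as their nearest protein-coding gene. At VEGFB this was so for 0 of 12 and 0 of 14 peaks, and at ANGPTL4 for 5 of 15 and 3 of 10. Over all 10 genes, 70 RUNX2 peaks (72.9%, exact 95% interval 62.9% to 81.5%) and 53 MTA1 peaks (66.3%, 54.8% to 76.4%) had the listed gene as their nearest.

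**Figure D2:**
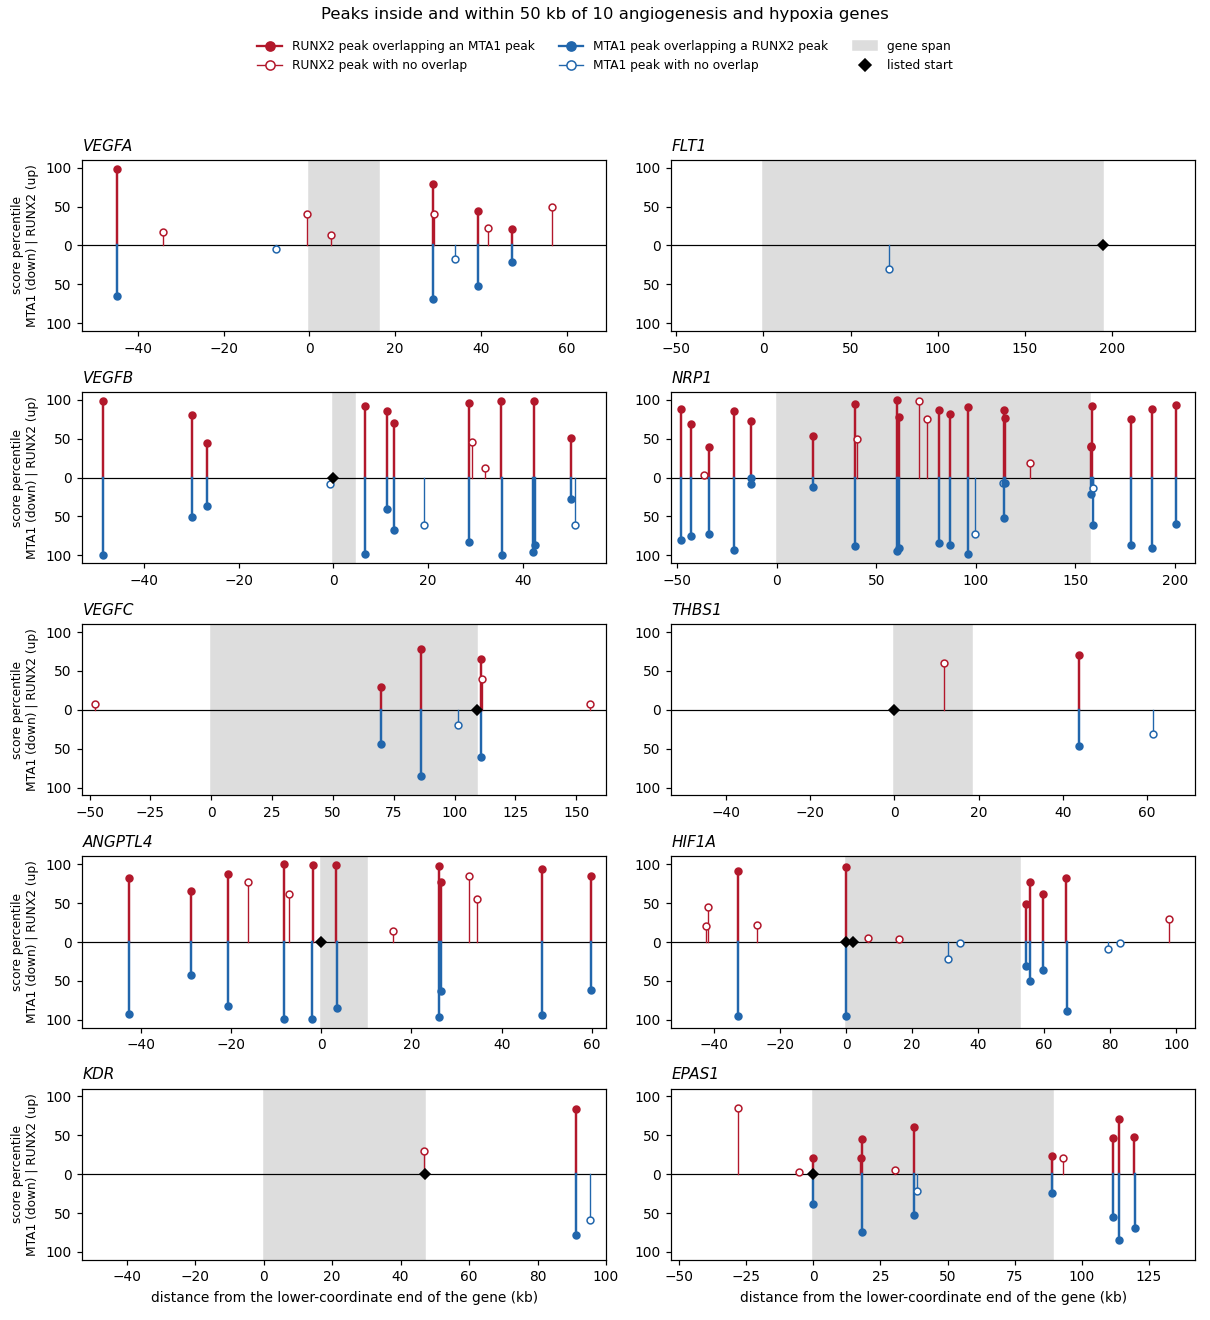
Position of each peak along the 10 genes, as the distance in kb from the lower-coordinate end of the gene (x axis), with its score percentile in its own list (y axis) upward for RUNX2 in red and downward for MTA1 in blue. Filled points overlap a peak of the other list, grey marks the gene and black diamonds its listed starts; the peaks inside NRP1 lie between 18.1 and 127 kb from that end, while FLT1 holds 1 weak MTA1 peak.

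VEGFA, the main ligand of vessel growth, had 10 RUNX2 and 6 MTA1 peaks, of which 4 overlapped. Inside the gene there was only 1 RUNX2 peak and no MTA1 peak. The strongest RUNX2 peak, at chromosome 6, 43725055 to 43725571, scored 43.2 and ranked above 97.7% of the list. It lay 44.6 kb from the nearer end of VEGFA and closer to MRPS18A, which encodes a mitochondrial ribosomal protein, and it overlapped an MTA1 peak of score 10.3 (65.6%). The strongest MTA1 peak of this gene was at 43798878 to 43799096, with a score of 10.96 (68.6%), and overlapped a RUNX2 peak of score 13.9 (78.8%). Both lay 12.4 kb outside the gene. At the gene itself the signal was weak in these lists. A RUNX2 peak of score 5.53 (41.0%) lay 477 bp outside an end, with no MTA1 peak over it, and the RUNX2 peak inside had a score of 4.15 (13%). Of the 10 RUNX2 peaks at VEGFA, 5 had the narrowest width of the list, 99 bp. This width was common, with 31.7% of all RUNX2 peaks and 23 of the 96 at the 10 genes. The VEGFA count was not tested against these shares.

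VEGFB, a ligand of FLT1, lies among closely packed genes, and its own 4.68 kb held 0 peaks of either list. The nearest was an MTA1 peak of score 4.22 (8.86%) at chromosome 11, 64233814 to 64233929, 655 bp upstream of the start and inside DNAJC4. The strong peaks of the window lay at other genes. The strongest RUNX2 peak, at 64269826 to 64270260 with a score of 49.2 (98.5%), was inside BAD, a BCL2 family gene that promotes cell death, and overlapped an MTA1 peak of score 46.6 (99.0%). The strongest MTA1 peak, at 64185659 to 64186229 with a score of 50.5 (99.3%), was inside STIP1, which encodes a co-chaperone, and overlapped a RUNX2 peak of score 48.7 (98.4%). At FKBP2, 6.33 kb downstream of the VEGFB start, a RUNX2 peak of score 27.1 (92.5%) overlapped an MTA1 peak of score 39.0 (98.0%). The high density of the VEGFB window thus consisted of peaks at its neighbours.

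VEGFC, the ligand of lymphatic vessel growth, had fewer and weaker peaks, and none reached the top 10% of either list by score. The strongest of both lists overlapped inside the gene, 23.1 kb downstream of the start for RUNX2. There RUNX2 had a score of 13.4 (77.8%) at chromosome 4, 176769596 to 176769835, and MTA1 17.8 (84.7%) at 176769630 to 176769905. A second pair lay upstream of the start, 1275 bp away for RUNX2 (score 9.30, 66.0%) and 1350 bp away for MTA1 (score 9.27, 60.8%). A further RUNX2 peak of score 5.33 (39.7%) lay 1.91 kb upstream with no MTA1 peak.

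ANGPTL4, a secreted inhibitor of lipoprotein lipase that hypoxia and PPAR receptors induce, had the strongest peaks near a start among these genes. All 10 of its MTA1 peaks overlapped a RUNX2 peak, and 10 of its 15 RUNX2 peaks overlapped an MTA1 peak. A RUNX2 peak of score 50.2 (98.6%) at chromosome 19, 8362027 to 8362430 lay 1.73 kb upstream of the start and overlapped an MTA1 peak of score 46.8 (99.0%), the strongest MTA1 peak of the window. Farther upstream, 7.95 kb from the start, the strongest RUNX2 peak of the window, at 8355614 to 8356202, scored 79.3 (99.9%), and the MTA1 peak overlapping it scored 42.8 (98.5%). Inside the gene, 2.96 kb downstream of the start, a RUNX2 peak of score 53.8 (98.9%) overlapped an MTA1 peak of score 17.6 (84.3%). These 3 RUNX2 peaks lay on both sides of the promoter window printed above, and neither list had a peak over it. The remaining strong peaks belonged to neighbours, among them a pair at RAB11B, a small GTPase gene, ranked above 97.9% of the RUNX2 list and 96.1% of the MTA1 list.

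The receptors KDR and FLT1 carried few peaks. At KDR a RUNX2 peak of the narrowest width, chromosome 4, 55125332 to 55125430, lay 165 bp downstream of the start. Its score of 5.22 was higher than 29.3% of the list, and no MTA1 peak overlapped it. The stronger signal was a pair 44.1 kb upstream of the start, at 55169699 to 55169896 with a score of 17.1 (83.8%) for RUNX2 and at 55169696 to 55169874 with 14.1 (77.7%) for MTA1. FLT1 had no RUNX2 peak. Its only MTA1 peak, at chromosome 13, 28372185 to 28372300, scored 5.85 (30.5%), had the narrowest width of that list, 116 bp, and lay 123 kb downstream of the start. Because each list holds only peaks above the threshold of its library, a gene with no peak may still have carried a weaker signal.

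NRP1 had the most peaks of the 10 genes. Those inside it had their centres between 18.1 and 127 kb from its lower-coordinate end for RUNX2 and between 18.2 and 115 kb for MTA1, in a gene of 157 kb. Of the RUNX2 peaks 13 lay inside the gene and 12 outside, and of the MTA1 peaks 11 and 12. Of the 25 RUNX2 peaks, 19 were shared with MTA1, and of the 23 MTA1 peaks, 20 were shared with RUNX2. The RUNX2 scores ran from 3.25 to 82.1 with a median of 13.6, and the MTA1 scores from 3.03 to 38.6 with a median of 12.2. The strongest RUNX2 peak of all 10 genes lay inside NRP1 at chromosome 10, 33237667 to 33238499, with a score of 82.1 (99.9%) and a width of 833 bp. It overlapped an MTA1 peak of score 29.2 (94.96%). The strongest MTA1 peak, at 33273268 to 33273619 with a score of 38.6 (97.9%), overlapped a RUNX2 peak of score 25.0 (91.2%). The RUNX2 peak at 33248722 to 33248988, with a score of 50.04 (98.5%), had no MTA1 peak over it. It was the highest-scoring of the 34 RUNX2 peaks of these genes without an MTA1 partner. Outside the higher-coordinate end, 1.14 kb away, a RUNX2 peak of score 26.8 (92.3%) overlapped an MTA1 peak of score 9.26 (60.4%).

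THBS1, which encodes a matrix glycoprotein that inhibits vessel growth, had no peak of either list within 3 kb of its start. Inside the gene lay 1 RUNX2 peak, at chromosome 15, 39592699 to 39592853, with a score of 8.03 (59.7%) and no MTA1 partner. The only pair of the window, with scores of 10.4 (69.9%) for RUNX2 at 39624825 to 39625033 and 7.26 (46.6%) for MTA1 at 39624857 to 39625008, lay inside the next gene, FSIP1.

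HIF1A and EPAS1, although related in function, differed at their starts. At HIF1A the strongest peak of either list lay across the start. RUNX2 scored 39.6 (96.9%) at chromosome 14, 61695106 to 61695675, and MTA1 scored 28.7 (94.7%) at 61695068 to 61695692. A second pair lay 32.6 kb upstream, with scores of 25.3 (91.4%) for RUNX2 and 28.4 (94.6%) for MTA1. Inside the gene, apart from the start, only unpaired peaks were listed, with RUNX2 scores of 3.42 and 3.39 and MTA1 scores of 5.33 and 3.28. Beyond the far end of the gene 3 weaker pairs lay within 10 kb, and a pair with scores of 16.1 (82.5%) for RUNX2 and 21.0 (88.9%) for MTA1 lay inside SNAPC1.

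At EPAS1 the start also carried a pair, but a weak one. RUNX2 scored 4.67 (20.6%) at chromosome 2, 46297118 to 46297265, 142 bp upstream of the start, and MTA1 scored 6.27 (38.4%) at 46297101 to 46297219. The strongest RUNX2 peak of this window, at 46269131 to 46269249 and 28.2 kb upstream, ranked above 85.0% of the list and had no MTA1 partner. The strongest MTA1 peak, at 46411116 to 46411515 and 24.4 kb beyond the far end, scored 17.5 (84.2%), and its RUNX2 partner scored 10.8 (71.3%). MTA1 held the higher rank in most pairs at EPAS1. RUNX2 ranked higher in 1 of 8 pairs, 2 of which share an MTA1 peak, and the median percentile over these pairs was 45.5 for RUNX2 and 61.8 for MTA1. Over all 27997 pairs of the lists RUNX2 ranked higher in 56.7%. Its share was 1 of 3 pairs at VEGFC, 2 of 4 at VEGFA, 11 of 19 at NRP1, 4 of 6 at HIF1A and 7 of 10 at both ANGPTL4 and VEGFB. With so few neighbouring pairs this is a description of each locus.

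A peak within 3 kb of the start was counted next, with either end of the gene used for VEGFA and NRP1, which have no listed start. RUNX2 had such a peak at 7 of the 10 genes, all but VEGFB, FLT1 and THBS1, against 57.2% of protein-coding genes. MTA1 had one at 6, namely VEGFB, VEGFC, ANGPTL4, NRP1, HIF1A and EPAS1, against 57.3%. Both lists were present at 5 genes, VEGFC, ANGPTL4, NRP1, HIF1A and EPAS1, against 50% of protein-coding genes. Over the 8 genes with a listed start, RUNX2 had a peak at 5 (58.3% of all such genes), MTA1 at 5 (59%) and both at 4 (51.7%). These counts were near the background. A peak of the top 10% by score lay within 3 kb of the start for RUNX2 at 3 genes, ANGPTL4, NRP1 and HIF1A (10.2% of protein-coding genes), and for MTA1 at 2, ANGPTL4 and HIF1A (14.9%). Where only peaks of at least the median score were kept, 4 genes had a RUNX2 peak (42.3% of protein-coding genes), and the same 4, VEGFC, ANGPTL4, NRP1 and HIF1A, had both (35.4%). Where each list was cut to its 10000 highest scores, ANGPTL4, NRP1 and HIF1A had a RUNX2 peak (16.6%), and ANGPTL4 and HIF1A an MTA1 peak (27.2%) and so both (13.7%). Within 1 kb of the start, 3 genes had both (44.3%). With 10 genes none of these counts was tested against its background.

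The ranks of the peaks differed from gene to gene. The pooled median RUNX2 percentile was 67.4 (95% interval from order statistics 49.7 to 77.2) and the median MTA1 percentile 61.2 (50.1 to 74.3), where 50 is the middle of a list and lies inside the RUNX2 interval. By gene, the RUNX2 median was below 50 at VEGFA (40.8), VEGFC (34.5), HIF1A (47.3) and EPAS1 (33.9), and above 75 at NRP1 (78.3), VEGFB (82.9) and ANGPTL4 (84.3). Without NRP1 the pooled medians were 59.7 for RUNX2 and 60.8 for MTA1. In the top 10% by score lay 19 of 96 RUNX2 peaks, or 19.8% (12.4% to 29.2%), against 10% of the list, and 16 of 80 MTA1 peaks, or 20% (11.9% to 30.4%), against 9.99%. They were unevenly spread. Of the 19 RUNX2 peaks, 6 lay at NRP1, 5 at VEGFB, 5 at ANGPTL4, 2 at HIF1A and 1 at VEGFA. All 5 at VEGFB and the 1 at VEGFA had another gene as their nearest, as did those at RAB11B and MARCHF2 in the ANGPTL4 window. Every MTA1 peak of the top 10% at VEGFB, and part of those at ANGPTL4, was also nearest to another gene. The share in the top 10% among peaks whose nearest gene is the listed one was not calculated. By gene, 5 of 10 had a RUNX2 peak of the top 10% in the window (38.8% of protein-coding genes) and 4 of 10 an MTA1 peak of the top 10% (38.9%). Limited to the 70 RUNX2 peaks whose nearest protein-coding gene is the listed one, the median percentile was 52.0, close to the middle of the list. For the 53 such MTA1 peaks it was 59.0.

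**Figure D3:**
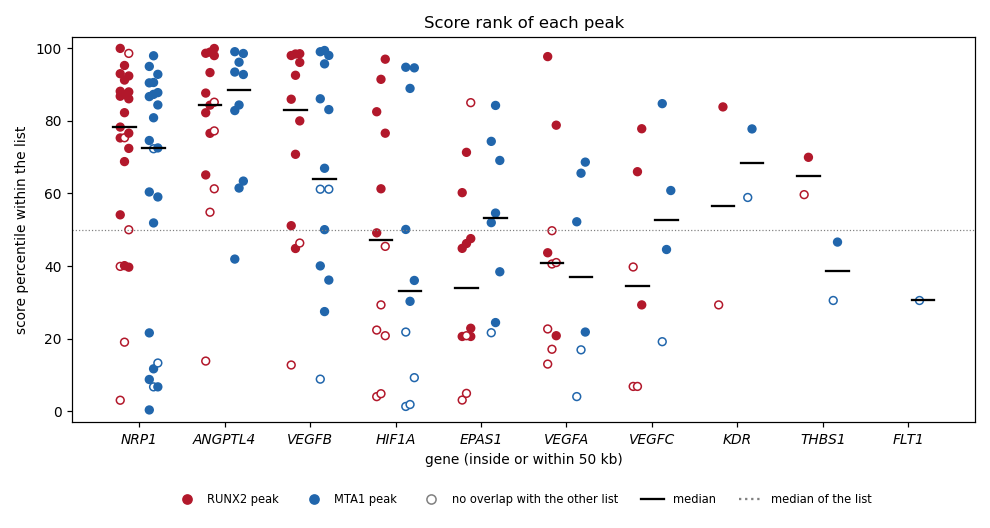
Score percentile of every peak within its own list (y axis) for each gene (x axis), RUNX2 in red and MTA1 in blue, with open points for peaks that overlap no peak of the other list, black bars for medians and a dotted line at 50. The medians of ANGPTL4, 84.3 for RUNX2 and 88.5 for MTA1, stand highest, and most open points lie in the lower part of the plot.

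Whether both proteins had peaks at the same places of these genes was examined by overlap. Of the 96 RUNX2 peaks 62 overlapped an MTA1 peak, or 64.6% (54.2% to 74.1%), against 45.4% of the whole list. For MTA1 the overlap took in 63 of 80 peaks, or 78.8% (68.2% to 87.1%), against 65.5%. Both intervals lay above the share of the whole list, although peaks of the same gene are not independent. The whole list was not limited to peaks within 50 kb of protein-coding genes, and the share in such a set was not calculated. Score moves with overlap in the whole lists, where overlapping RUNX2 peaks had a median percentile of 72.4 and the others 29.3, and the part of this in the shares above was not tested. Among peaks of at least the median score 71.9% of RUNX2 peaks at these genes overlapped (58.5% to 83.03%), against 52.6% of all such peaks. For MTA1 it was 82.4% (69.1% to 91.6%) against 75.8%, a difference within the interval. With each list cut to its 10000 highest scores the RUNX2 share was 70% (50.6% to 85.3%) against 52.4%, and within 10 kb of the genes the MTA1 share was 73.7% (56.9% to 86.6%), so in these settings too the interval includes the share of the list. Without NRP1 the RUNX2 share was 60.6% (48.3% to 72.0%), an interval above the share of its list. The MTA1 share without NRP1 was 75.4% (62.2% to 85.9%), an interval that includes the share of its list. Inside the genes 17 of 27 RUNX2 peaks overlapped (63.0%, 42.4% to 80.6%), an interval that includes the 45.4% of the list. Outside them it was 45 of 69 (65.2%, 52.8% to 76.3%), and the intervals inside and outside overlap. For MTA1 the counts were 16 of 23 inside (69.6%, 47.1% to 86.8%) and 47 of 57 outside (82.5%, 70.1% to 91.3%). Only the inside interval includes the 65.5% of the MTA1 list.

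By their medians, overlapping peaks at these genes ranked higher and were wider than the others. The median percentile was 79.4 for the 62 overlapping RUNX2 peaks and 29.3 for the other 34, and it was 72.5 for the 63 overlapping MTA1 peaks and 19.2 for the other 17. The whole MTA1 list showed the same split, with 65.2 and 24.4. There were exceptions, such as the unpaired RUNX2 peaks of NRP1 at 33248722 (98.5%, 267 bp) and 33252602 (75.3%, 600 bp). The median width was 272 bp against 99 bp for RUNX2 and 256 bp against 116 bp for MTA1. An overlap rule of 1 bp is met more easily by a wide peak. The centres of the 62 pairs lay between 0.5 and 250.5 bp apart with a median of 41.8 bp, against 32 bp over all pairs. Across the 62 pairs the scores had a Spearman rho of 0.72, against 0.464 over all 27997 pairs. This is a description over neighbouring sites of 2 libraries, which are not independent replicates. RUNX2 held the higher percentile in 35 pairs and MTA1 in 27. Pairs with both percentiles above 94 lay in the windows of ANGPTL4, VEGFB, NRP1 and HIF1A, and those of VEGFB and the pair at RAB11B lie in other genes.

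**Figure D4:**
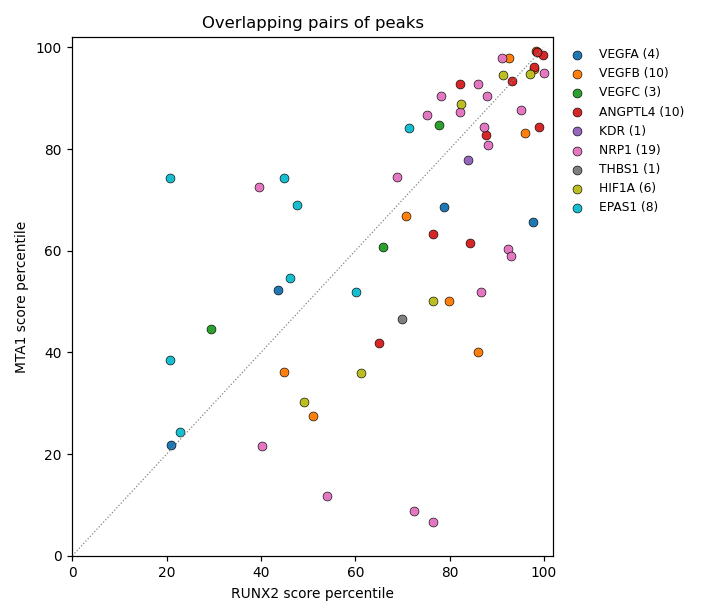
Score percentile of the RUNX2 peak (x axis) and of its highest-scoring MTA1 partner (y axis) for each of the 62 overlapping pairs, coloured by gene with the number of pairs in brackets; the dotted line marks equal ranks. The points of ANGPTL4 gather toward the upper right, and 7 of the 8 points of EPAS1 lie above the line.

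Beyond these 10, 45 further genes of the same pathways were examined at their starts. A start is listed for 36 of them, and either end of the gene was used for the others. Of the 45, 29 had a RUNX2 peak within 3 kb (64.4%, against 57.2% of all protein-coding genes). An MTA1 peak was present at 29 (64.4%, against 57.3%), both at 26 (57.8%, against 50%) and neither at 13. Of all 20037 protein-coding genes 11452 had a RUNX2 peak there, 11475 an MTA1 peak and 10021 both. These numbers fix the share with neither, which was not calculated. The counts with neither, here and by class, are therefore not read as a lack of peaks, and none of the counts was tested. By class the counts were as follows, beside the same 50% for both lists and with no test between classes. Among 8 genes that control the hypoxia factors 7 had both, and among 12 hypoxia targets 10 had both. Among 8 receptors 2 had both, NRP2 and PDGFRA, and 5 had neither, namely TEK, TIE1, PDGFRB, EDNRA and ENG. Of 11 ligands 5 had both, ANGPT1, PDGFA, ADM, EDN1 and CXCL8, and 6 had neither. Of 6 inhibitors 2 had both, ADAMTS1 and VASH1.

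The strongest start peaks of the wider list were at hypoxia genes. ARNT, the shared partner of HIF1A and EPAS1, led both lists, with a RUNX2 peak at chromosome 1, 150876511 to 150876993 of score 63.9 (99.5%) that overlapped an MTA1 peak of score 43.6 (98.7%). EGLN2, a prolyl hydroxylase that marks HIF alpha subunits for destruction, had a RUNX2 peak of score 37.4 (96.4%) over an MTA1 peak of score 43.3 (98.6%). DDIT4, an inhibitor of mTORC1 that hypoxia induces, also ranked among the first 5 of both lists, with scores of 33.6 (95.3%) and 36.6 (97.4%). The other leading RUNX2 scores were 36.6 (96.2%) at the histone demethylase gene KDM3A and 31.4 (94.5%) at BNIP3, a gene of mitochondrial turnover. The other leading MTA1 scores were 37.4 (97.6%) at P4HA1, a collagen prolyl hydroxylase gene, and 32.7 (96.3%) at NDRG1, a stress-response gene. At each of these 7 genes both lists had a peak within 3 kb of the start. They were picked for a high start score, so a peak of at least 1 list there was given in advance. Among all protein-coding genes 50% had both, and the 7 genes are not a sample to set against that share. For NDRG1, which has no listed start, either end of the gene was used.

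**Figure D5:**
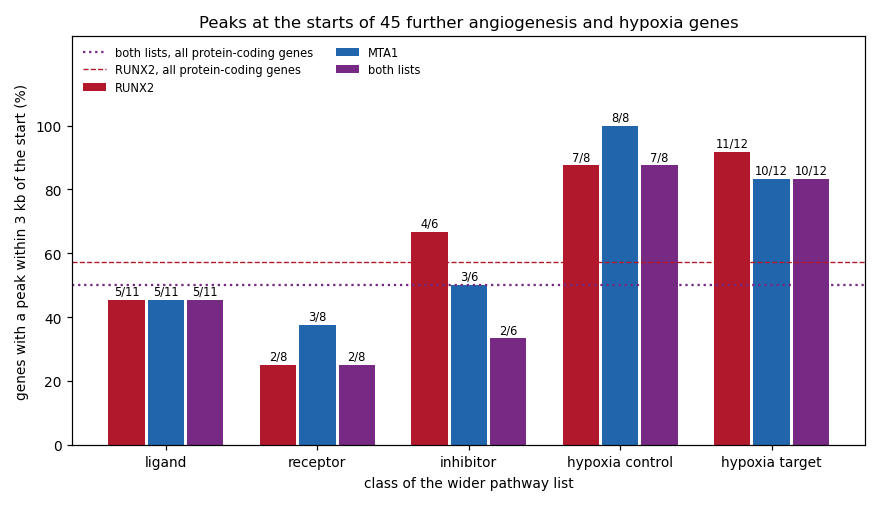
Percentage of the genes of each class (x axis) with a RUNX2 peak (red), an MTA1 peak (blue) or peaks of both lists (purple) within 3 kb of the start (y axis), with the numbers of genes above the bars and, as a dashed red and a dotted purple line, the 57.2% and 50% of all protein-coding genes with a RUNX2 peak and with both. Hypoxia control and hypoxia target genes stand above the lines with 7 of 8 and 10 of 12 for both lists, and receptors below with 2 of 8.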

How the data were processed

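MDA-MB-231 cells were profiled by CUT&Tag with an antibody against RUNX2 or MTA1, with 1 library each. For each library the authors deposited the peaks they had called, as positions with a score on an unstated scale; their threshold is not given in the sources used here. The submitters' processing notes name CASAVA 1.4, Bowtie 0.12.8, MACS, MACS2 and hg19. In these lists 289 RUNX2 and 244 MTA1 peaks on 5 chromosomes lay past the hg19 ends of those chromosomes and 0 past the GRCh38 ends, so GRCh38 was used. Positions are 1-based. Genes and listed starts came from RefSeq tables of GRCh38.p14, with a start for 15843 of 20037 protein-coding genes (either end otherwise).

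Peaks overlapping by at least 1 bp were called shared. Peaks on chromosomes 1 to 22, X and Y were ranked within their list. Intervals are exact (Clopper-Pearson) at 95%, or from order statistics for medians. Overlap calling was checked on simulated peaks. The genes, the wider list of 45 and the alternatives were chosen with earlier results of these data known. The named genes are the 10 genes, their strongest and start peaks, and the 5 highest start scores per list among the 45. The tools were Python 3.11.15, scipy 1.17.1, pandas 2.3.3, matplotlib 3.10.9 and numpy 2.4.6.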

Additional observations from a re-analysis of the deposited data

How the results depend on the processing

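Of 67 alternatives over 11 results, 47 stayed within 1.5-fold of a count or within the counting interval, and 20 moved. Among the 67, 6 were not planned and were chosen after seeing the data, those limited to peaks whose nearest protein-coding gene is the listed one. The others were planned, but with earlier results of these data known. Most moves follow from the construction, since a smaller window or fewer peaks must lower a count. RUNX2 and MTA1 peaks numbered 27 and 23 inside the genes, 46 and 38 within 10 kb, 57 and 51 at or above the median score, and 30 and 29 among the 10000 highest-scoring peaks. With the nearest-gene limit 53 MTA1 peaks remained. Per 100 kb of the full windows, RUNX2 and MTA1 densities were 5.65 and 4.71. In the windows of all protein-coding genes, joined where they overlap, they were 2.77 and 1.97. Joining counts a stretch shared by several genes only once. With each window kept separate, the medians over protein-coding genes were higher, 3.55 and 2.58. Densities at these genes fell to 3.86 and 3.29 inside the genes, where the cause was not tested, and to 3.35 and 3.0 at or above the median score. For these settings the density over all protein-coding genes was not calculated. When an overlap had to span 50% of each peak, 50% of RUNX2 peaks were shared (39.6% to 60.4%, against 34.9% of the list), and 60% of MTA1 peaks (48.4% to 70.8%, an interval that includes the 50.5% of the list). At starts, RUNX2 peaks at or above the median score were present at 4 genes (42.3% of protein-coding genes). The 10000 highest-scoring peaks left 3 genes with a RUNX2 peak (16.6%), 2 with an MTA1 peak (27.2%) and 2 with both (13.7%), and a window of 1 kb left 3 genes with both (44.3%). No paired analysis was possible because each antibody has 1 library. The depth is unknown, and whether FLT1, KDR or THBS1 carried signal below the thresholds was not detectable.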
